A study of Mus musculus with 12 samples.

Results

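The 48 genes described here lie on distal mouse chromosome 6 around the pluripotency gene Nanog. They were chosen by symbol, as genes of the distal interval that starts at about 120 Mb (GRCm38), and they form 48 of the 52661 genes in the count table. By their starts, 4 of them, Adipor2, Erc1, Rad52 and Wnk1, lie just before 120 Mb. The set was put together after the comparison of netrin-1 WT with control had been seen, so that comparison is given below as a description. A filter on low counts kept 21053 genes, 47 of the 48 among them. The member that failed it was Usp18, an interferon-induced protease that removes ISG15, at 0 to 0.109 CPM (counts scaled to the size of a library) in every library.

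RNA was taken from CGR8 mouse embryonic stem cells, an established line kept in serum with leukemia inhibitory factor (LIF), a cytokine that maintains pluripotency. All cells carried a stably transfected puromycin-selectable vector, spelled ppy-cagg-ires-puro in the labels. It was empty in the control group (n = 3) and encoded wild-type netrin-1 (netrin-1 WT, n = 3) or a netrin-1 point mutant named for 1 receptor, unc5B MUT (n = 3) or neo1 MUT (n = 3). The labels do not say whether a group is a clone or a pool, or whether its libraries came from separate cultures, so p-values measure the spread between these libraries only. Endogenous Ntn1 was not deleted in any group. The Ntn1 level was 0.782 to 15.4 CPM in control, 76.9 to 288 in netrin-1 WT, 34.9 to 322 in unc5B MUT and 56.4 to 219 in neo1 MUT.

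Netrin-1 is a secreted guidance protein of the laminin family that binds Dcc, neogenin and Unc5 receptors, and in pluripotent cells it has been studied as a signal that acts on self-renewal. Nanog sits in a cluster with Dppa3, Gdf3 and Slc2a3 that is active in mouse embryonic stem cells, amid many housekeeping genes whose products serve chromatin, the cell cycle, DNA repair, ribosome production and mitochondria. Distal chromosome 6 corresponds to the short arm of human chromosome 12, a region known for copy gain in pluripotent stem cells and germ cell tumours.

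The libraries held 22256195 to 59735737 estimated counts, and the libraries numbered 3 in each group were the shallowest, at 22256195 to 24736421. Those 4 libraries stood apart: the deviations of a number 3 library from its group mean correlated at -0.827 to -0.597 with those of libraries of other numbers. Libraries are therefore listed in the order of their numbers, 1, 2 and 3, and counts of called members are given from the fit by group and from a second fit that adds the replicate number as a block. The summed level of 10 pluripotent cell markers was 4231 to 4826 CPM in control, 4449 to 4782 in netrin-1 WT, 4192 to 4769 in unc5B MUT and 3678 to 4632 in neo1 MUT, and Pou5f1, which encodes the core factor Oct4, was at 969 to 1487 CPM in every library.

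Without the block, edgeR called 0 of the 47 tested members in each of the 6 comparisons at an adjusted p of 0.05. Few genes of any kind were called in that fit: 0.0997% of all tested genes for netrin-1 WT against control, 0.0% for unc5B MUT against control, 0.128% for neo1 MUT against control, 0.0% for unc5B MUT against netrin-1 WT, 0.076% for neo1 MUT against netrin-1 WT and 0.133% for neo1 MUT against unc5B MUT. At an unadjusted p under 0.05 the members counted were 7, 0, 4, 7, 4 and 6 in the same order. Among all 21053 tested genes the counts were 1219, 238, 1529, 1059, 1015 and 1443. DESeq2 in the same design called 3, 0, 2, 3, 1 and 2 members, and limma-voom called 0 in each. The share of all genes called by DESeq2 is not given here. All calls named below come from the edgeR fit with the block, and log2 fold changes are from that fit.

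The comparison that chose the set was netrin-1 WT against control. Its members had a median log2 fold change of 0.31, a 1.24-fold difference, and 42 of 47 were above 0, while the median of all tested genes was 0.01. In the fit with the block 8 members were called higher, against 1.74% of all tested genes, and 0 were called lower, against 1.76%. Since this comparison put the set together, these counts describe it and are not evidence about it. Within the numbers, the members' median difference between the netrin-1 WT and control libraries was 0.22, 0.17 and 0.56. The members above the control library of their number were 30, 32 and 43 of 47, so the shift was widest in number 3. The count of called members was 12 without netrin-1 WT 3, 7 without control 3, 2 without control 1, and 1 without control 2, netrin-1 WT 1 or netrin-1 WT 2. Here and below, the share of all genes called in fits with 1 library left out is not given. Such counts show only how the members' count moved.

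**Figure D1:**
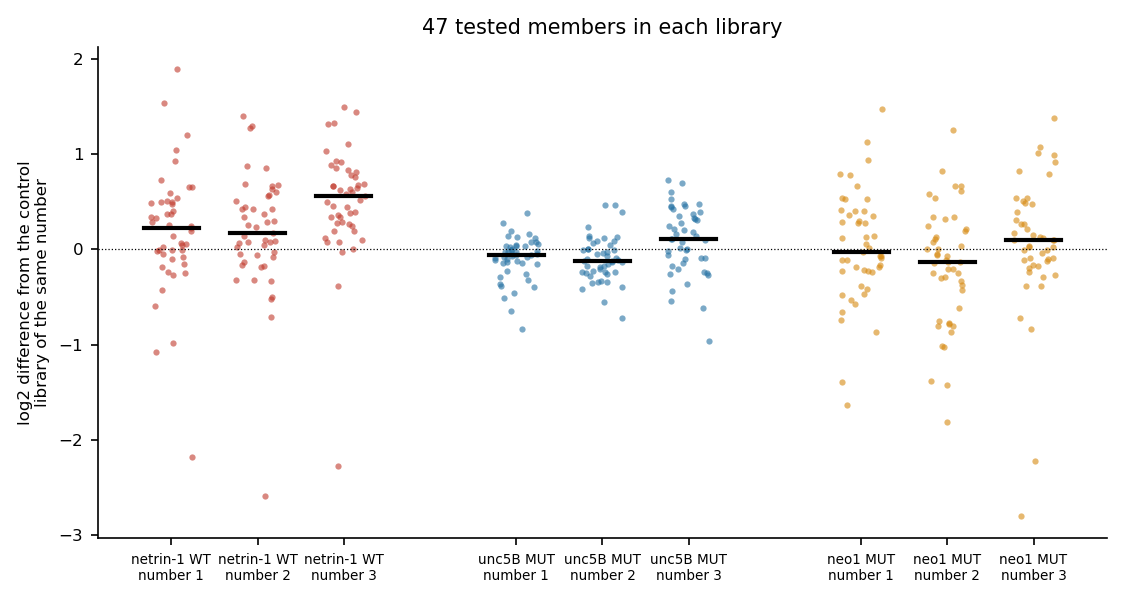
Each point is 1 of the 47 tested members, the y axis is its log2 CPM difference from the control library of the same number, and black bars are medians. The netrin-1 WT medians are 0.22, 0.17 and 0.56, and those of both mutants lie between -0.13 and 0.11.

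The 8 members called higher were Adipor2, Ing4, Tulp3, Rhno1, Foxm1, Mansc1, Dusp16 and Crebl2. The largest log2 fold change belonged to Mansc1, which encodes a MANSC-domain membrane protein, at 1.69 ± 0.35 (SE). Mansc1 was scarce in every library, at 0.443, 0.550 and 0.503 CPM in the control libraries, 1.80, 1.54 and 1.45 in those of netrin-1 WT, 0.306, 0.544 and 0.706 in those of unc5B MUT, and 1.32, 1.39 and 0.997 in those of neo1 MUT. The netrin-1 WT libraries all lay above the other 9, and the neo1 MUT libraries lay above all of control and unc5B MUT. Crebl2, a bZIP protein related to the CREB factors, stood at 11.7, 10.02 and 7.71 CPM in the control libraries, 22.4, 24.2 and 13.8 in those of netrin-1 WT, 8.85, 11.1 and 9.67 in those of unc5B MUT, and 15.5, 15.9 and 13.3 in those of neo1 MUT. Both netrin-1 WT and neo1 MUT libraries were above every control and unc5B MUT library. Its log2 fold change in netrin-1 WT was 1.02 ± 0.19 (SE).

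Dusp16, a phosphatase of JNK and p38 kinases, was measured at 25.7, 26.4 and 44.2 CPM in the control libraries, 58.9, 65.0 and 58.1 in those of netrin-1 WT, 18.1, 26.4 and 37.3 in those of unc5B MUT, and 44.4, 46.7 and 48.2 in those of neo1 MUT. The 3 netrin-1 WT libraries held the highest Dusp16 levels, neo1 MUT came next, and unc5B MUT overlapped control. Tulp3, a tubby-like adaptor that carries membrane proteins into primary cilia, had 32.5, 39.0 and 54.7 CPM in the control libraries, 66.8, 71.0 and 137.2 in those of netrin-1 WT, 31.0, 39.0 and 88.7 in those of unc5B MUT, and 62.2, 61.9 and 142 in those of neo1 MUT. Its netrin-1 WT and neo1 MUT libraries lay above every control library, while unc5B MUT overlapped control in numbers 1 and 2 and was higher in number 3. Adipor2, a receptor for adiponectin that also maintains membrane fluidity, was at 125, 125 and 85.1 CPM in the control libraries, 178, 184 and 96.9 in those of netrin-1 WT, 129, 136.9 and 79.9 in those of unc5B MUT, and 180, 187 and 111 in those of neo1 MUT. Number 3 was lowest in every group for Adipor2, and within each number netrin-1 WT and neo1 MUT exceeded control.

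**Figure D2:**
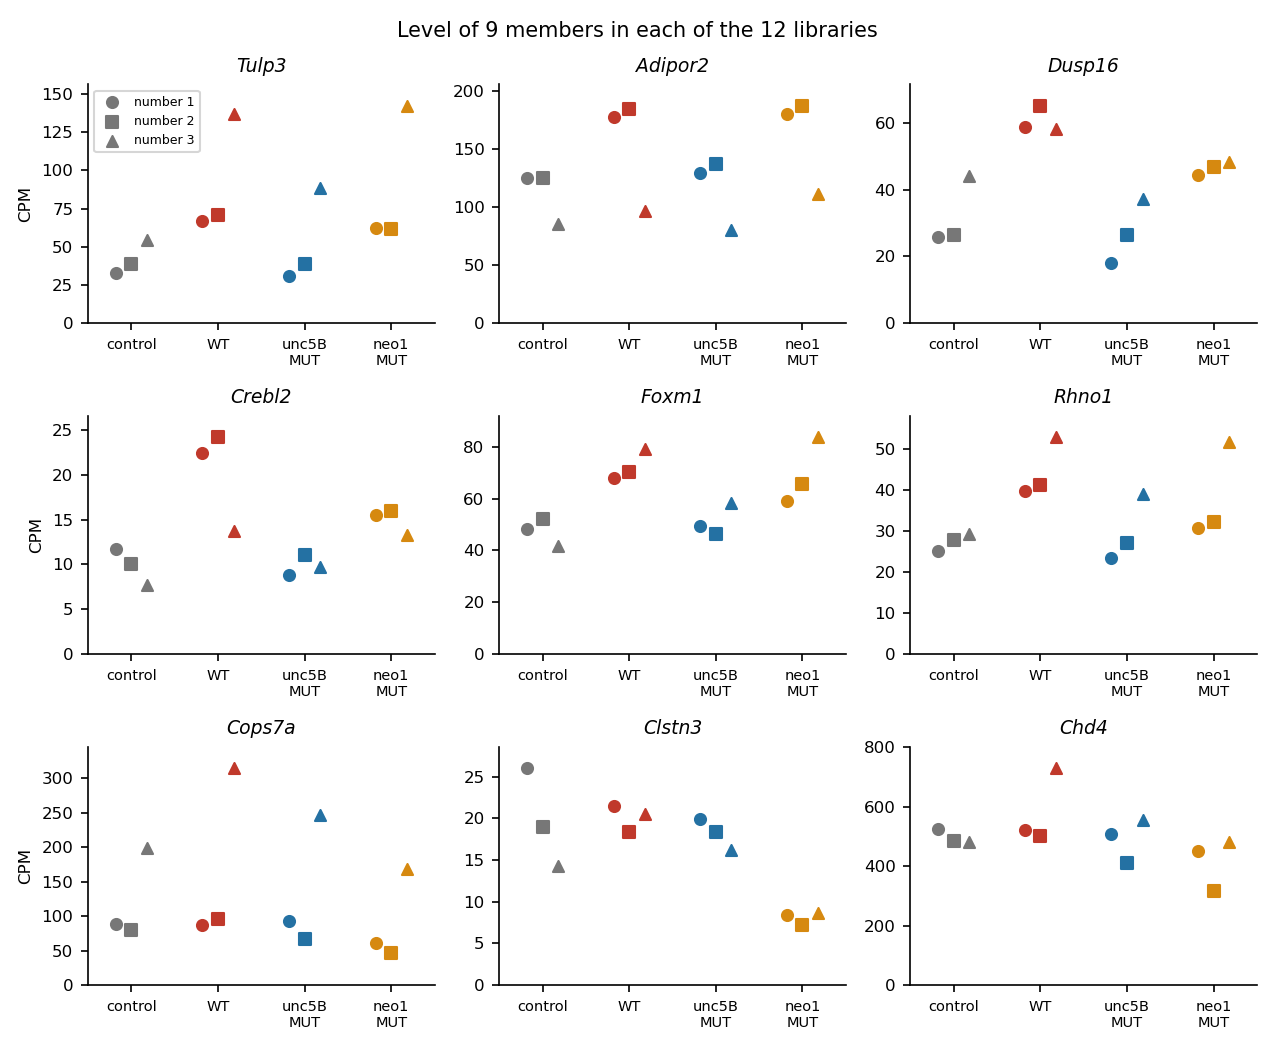
CPM (y axis, from 0) of 9 members in the 12 libraries, by group, with circles, squares and triangles for numbers 1, 2 and 3. Tulp3, Adipor2, Dusp16 and Crebl2 are high in netrin-1 WT and neo1 MUT, and the lowest Clstn3 levels are those of the 3 neo1 MUT libraries, at 7.24 to 8.66 CPM.

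Ing4, a reader of histone H3 methylated at lysine 4 in the HBO1 acetyltransferase complex, differed from control by 0.65 ± 0.13 (SE) on the log2 scale in netrin-1 WT. Its netrin-1 WT libraries, at 43.5 to 48.3 CPM, lay above all others, which reached 40.1 CPM. The neighbours Rhno1, a partner of the checkpoint clamp that activates ATR, and Foxm1, a forkhead factor that drives mitotic genes, differed by 0.68 and 0.60. Rhno1 was at 25.3, 27.9 and 29.3 CPM in the control libraries, 39.8, 41.4 and 53.0 in those of netrin-1 WT, 23.4, 27.2 and 39.2 in those of unc5B MUT, and 30.7, 32.2 and 51.8 in those of neo1 MUT. Its netrin-1 WT libraries were above all control libraries, and unc5B MUT exceeded control only in number 3. Foxm1 in netrin-1 WT, at 68.0 to 79.4 CPM, did not overlap control, at 41.7 to 52.0 CPM.

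The members with the lowest values in netrin-1 WT against control were Dyrk4, Ccnd2 and Rad52, and the test called none of them. Dyrk4, a dual-specificity kinase, was near the limit of detection at 0.642, 0.598 and 1.79 CPM in the control libraries, 0.0984, 0.0530 and 1.36 in those of netrin-1 WT, 0.853, 0.653 and 1.14 in those of unc5B MUT, and 0.449, 0.131 and 0.210 in those of neo1 MUT. Ccnd2, the G1 cyclin D2, was at 2.61, 1.75 and 61.5 CPM in the control libraries, 1.72, 1.22 and 12.7 in those of netrin-1 WT, 1.43, 2.44 and 42.3 in those of unc5B MUT, and 4.53, 1.33 and 13.1 in those of neo1 MUT. Ccnd2 was thus scarce outside number 3, where control was the highest of the 4 groups. Rad52, which promotes annealing in homologous recombination, was at 14.3, 8.15 and 13.3 CPM in the control libraries, 6.72, 5.67 and 18.9 in those of netrin-1 WT, 11.6, 7.67 and 11.3 in those of unc5B MUT, and 8.53, 4.45 and 13.0 in those of neo1 MUT. Its groups overlapped.

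Both comparisons of a mutant with control share the control libraries with the comparison that chose the set. In unc5B MUT the members had a median log2 fold change against control of -0.02, and 22 of 47 were above 0, with a range from -0.33 to 0.20. The fit with the block called 0 members higher, against 0.0237% of all tested genes, and 0 lower, against 0.00475%. The count at an unadjusted p under 0.05 was also 0, where 990 of the 21053 tested genes had one. DESeq2 and limma-voom called 0 members with the block. The background shows that almost no gene was called in this comparison, so the members' count is near it. The within-number medians were -0.06, -0.12 and 0.11.

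The highest unc5B MUT values against control were those of Tulp3, Tnfrsf1a and Emp1, at 0.20, 0.17 and 0.17, and the lowest those of Tead4, Mical3 and Ccnd2, at -0.33, -0.30 and -0.30. Tead4, a DNA-binding partner of Yap, was at 29.6, 26.2 and 17.8 CPM in the control libraries, 28.02, 23.1 and 22.5 in those of netrin-1 WT, 18.9, 15.8 and 23.3 in those of unc5B MUT, and 28.2, 40.0 and 25.9 in those of neo1 MUT. The unc5B MUT libraries were below control in numbers 1 and 2 and above it in number 3. Mical3, an actin-oxidising enzyme, was at 81.1, 67.9 and 74.8 CPM in the control libraries, 68.4, 53.9 and 116 in those of netrin-1 WT, 64.8, 50.6 and 68.0 in those of unc5B MUT, and 69.0, 53.8 and 68.8 in those of neo1 MUT. Only number 3 of netrin-1 WT stood out for Mical3.

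The neo1 MUT group was mixed. Its median log2 fold change against control was -0.03, with 23 of 47 members above 0, but the values spread from -1.61 to 1.32. Adipor2 and Tulp3 were called higher, 2 members against 1.97% of all tested genes, and Clstn3 was called lower, 1 member against 3.3%. As shares of the 47 members these are 4.26% and 2.13%, close to the background in both directions. Tulp3 rose by 0.98 ± 0.15 (SE, edgeR adjusted p = 0.00599, n = 3 a group), and Adipor2 by 0.50 ± 0.10 (edgeR adjusted p = 0.0183). Clstn3, a calsyntenin of the cell surface known from synapses and adipocytes, fell by 1.27 ± 0.19 on the log2 scale (edgeR adjusted p = 0.00483).

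**Figure D3:**
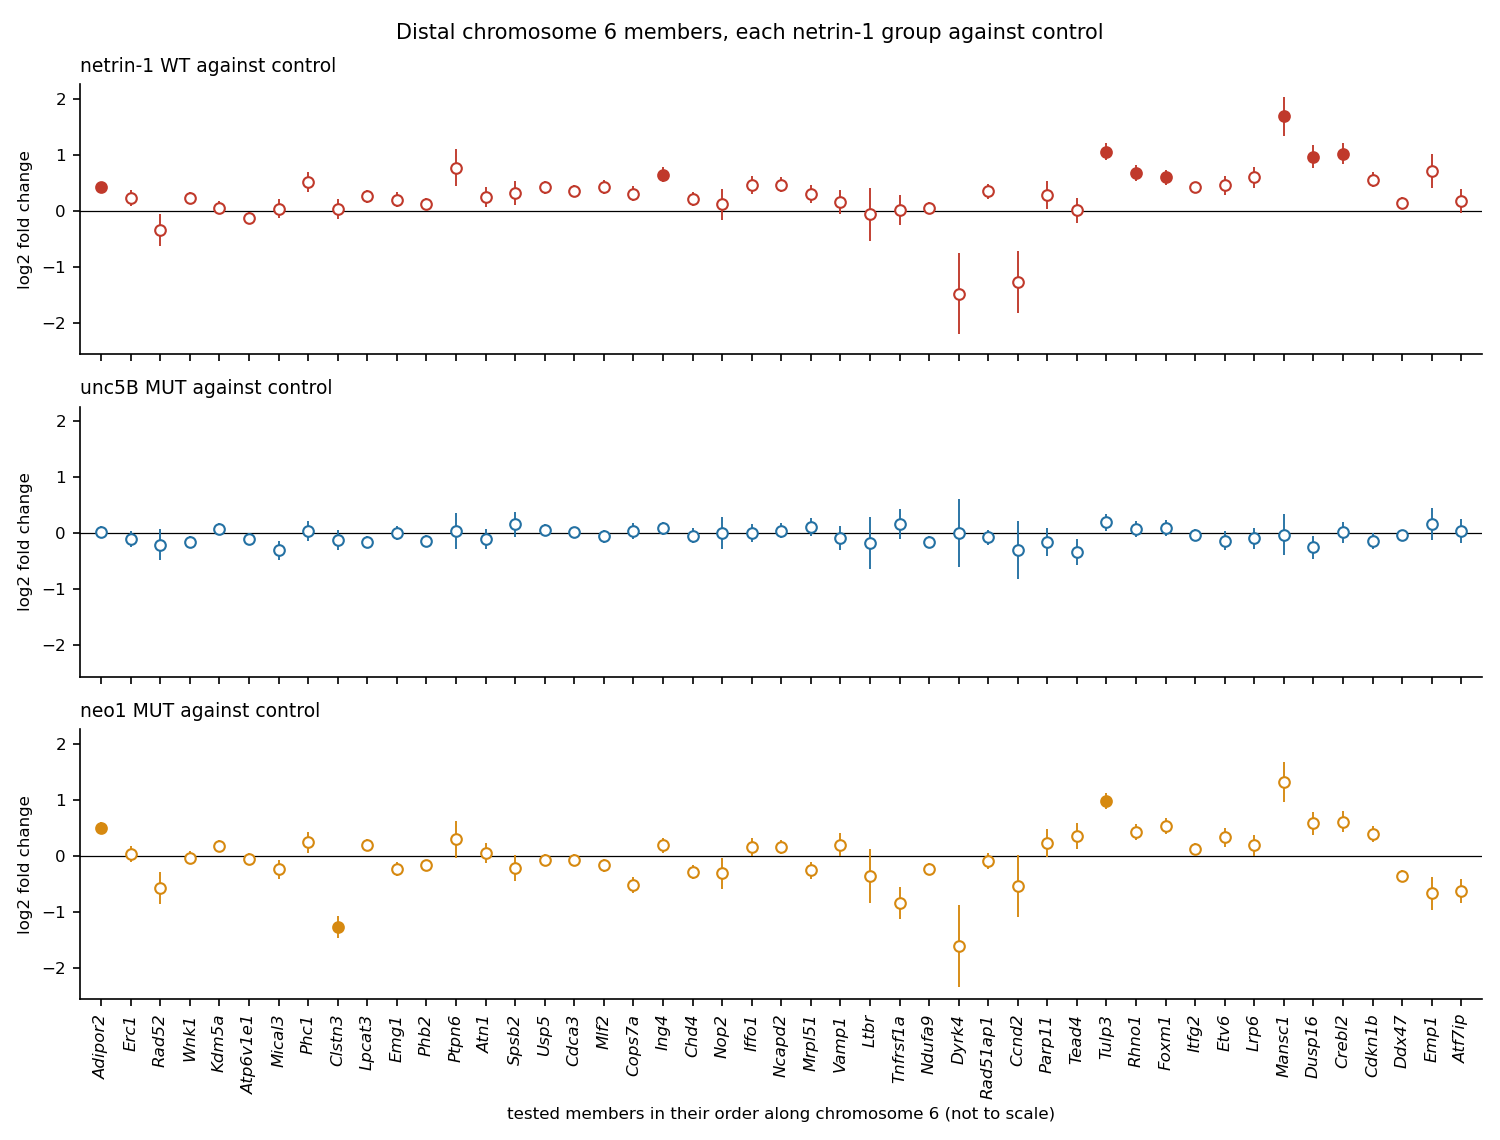
Log2 fold change with its SE (y axis) of the 47 tested members in their order along chromosome 6, for each netrin-1 group against control in the fit with the block. Filled points have an adjusted p under 0.05: 8 members in netrin-1 WT, 0 in unc5B MUT and 3 in neo1 MUT.

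Clstn3 stood at 26, 18.9 and 14.3 CPM in the control libraries, 21.5, 18.3 and 20.5 in those of netrin-1 WT, 19.9, 18.4 and 16.2 in those of unc5B MUT, and 8.35, 7.24 and 8.66 in those of neo1 MUT. The neo1 MUT libraries were below the other 9, whose lowest value was 14.3 CPM. Without the block the log2 fold change of Clstn3 was -1.29, with an edgeR adjusted p of 0.0739. The calls of Tulp3 and Clstn3 against control held whichever of the 6 libraries was left out, at adjusted p up to 0.0348 and 0.0352. Adipor2 lost its call without control 1 or 2 or without any of the 3 neo1 MUT libraries, at an adjusted p up to 0.103. The count of called members, given without the share of all genes, was 6 without control 3 and 2 without any other of the 6 libraries.

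Other members of the neo1 MUT group had values of similar size without a call. Mansc1, Crebl2, Dusp16 and Foxm1 had log2 fold changes against control of 1.32, 0.61, 0.58 and 0.53, with edgeR adjusted p of 0.0581, 0.0898, 0.13 and 0.0581. On the lower side, Dyrk4 and Tnfrsf1a, the type 1 receptor of tumour necrosis factor, had -1.61 and -0.84 (edgeR adjusted p = 0.246 and 0.115). Tnfrsf1a was at 5.09, 4.59 and 12.8 CPM in the control libraries, 3.76, 4.005 and 20.6 in those of netrin-1 WT, 6.18, 4.38 and 15.6 in those of unc5B MUT, and 1.90, 2.25 and 11.8 in those of neo1 MUT. Its neo1 MUT libraries were below the control library of the same number in all 3 numbers.

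The comparison of neo1 MUT with unc5B MUT shares no library with the one that chose the set. It is still not free of the choice, since the members were chosen with earlier results of these data known. Its spread was also estimated over all 12 libraries. Here the members had a median log2 fold change of 0.10, with 26 of 47 above 0, and all tested genes a median of -0.00. Adipor2, Tulp3 and Dusp16 were called higher in neo1 MUT, 3 members or 6.38% against 1.59% of all tested genes. Clstn3 was called lower, 1 member or 2.13% against 3.28%. The log2 fold changes were 0.47 ± 0.10 for Adipor2 (edgeR adjusted p = 0.0257), 0.78 ± 0.15 for Tulp3 (edgeR adjusted p = 0.018) and 0.82 ± 0.20 for Dusp16 (edgeR adjusted p = 0.0426). Clstn3 fell by 1.16 ± 0.18 (edgeR adjusted p = 0.0086).

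The direction of these 4 differences was the same in all 3 numbers. Adipor2 differed by 0.48, 0.45 and 0.48 on the log2 scale in numbers 1, 2 and 3. Tulp3 differed by 1.0, 0.66 and 0.68, and Dusp16 by 1.29, 0.82 and 0.37. Clstn3 differed by -1.24, -1.33 and -0.90. The calls were less firm than the directions: Adipor2 and Dusp16 lost theirs whichever of the 6 libraries was left out, at adjusted p up to 0.168 and 0.246. Tulp3 lost its call without unc5B MUT 1 or 2 or neo1 MUT 1 or 3, at up to 0.126, and Clstn3 without unc5B MUT 1 or 2, at up to 0.0637. The count of called members was 0 without unc5B MUT 1 or 2, 1 without neo1 MUT 1 or 3, and 2 without unc5B MUT 3 or neo1 MUT 2. It is given without the share of all genes called in those fits.

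Both mutants were also set against netrin-1 WT. These comparisons share the netrin-1 WT libraries with the comparison that chose the set, so their direction follows in part from the choice. For unc5B MUT the members' median was -0.35 with 6 of 47 above 0. The fit called 0 members higher, against 1.0% of all tested genes, and 6 lower, against 0.964%: Ing4, Tulp3, Mansc1, Dusp16, Crebl2 and Cdkn1b. Cdkn1b, the cyclin-dependent kinase inhibitor p27, had a log2 fold change of -0.71 ± 0.14 (SE), with 45.8, 45.1 and 21.02 CPM in unc5B MUT and 80.8, 74.97 and 30.6 CPM in netrin-1 WT. It was lower in unc5B MUT in each number, although the groups overlapped through number 3. The count of called members was 13 without netrin-1 WT 3, 2 without unc5B MUT 3, and 0 without any other of the 6 libraries. The share of all genes called in those fits is not given.

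For neo1 MUT against netrin-1 WT the median was -0.30, again with 6 of 47 above 0. The fit called 0 members higher, against 0.394% of all tested genes, and 6 lower, against 1.6%: Clstn3, Usp5, Mlf2, Cops7a, Ddx47 and Emp1. Clstn3 had the lowest adjusted p, at 0.00519 in edgeR, with a log2 fold change of -1.31 ± 0.19. Emp1, an epithelial membrane protein, was at 81.0, 35.1 and 23.7 CPM in the control libraries, 80.5, 46.97 and 66.5 in those of netrin-1 WT, 84.5, 46.1 and 23.7 in those of unc5B MUT, and 57.9, 20.6 and 13.2 in those of neo1 MUT. Its libraries spread widely within every group, and neo1 MUT was lowest in each number. The count of called members, again without the share of all genes, was 3 without netrin-1 WT 1 or 3 and 1 without any other of the 6 libraries.

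Across the 4 groups, netrin-1 WT held the highest level of a member in 24, 28 and 37 of 47 cases in numbers 1, 2 and 3, against 29.5%, 26.6% and 23.8% of all tested genes. It was the highest in all 3 numbers for 15 members, against 4.12% of all tested genes. Those 15 were Wnk1, Ptpn6, Usp5, Cdca3, Mlf2, Ing4, Iffo1, Ncapd2, Rhno1, Itfg2, Mansc1, Dusp16, Crebl2, Cdkn1b and Ddx47. The ranking uses the netrin-1 WT and control libraries of the choosing comparison and is a description.

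By role, the 10 tested members that act in chromatin and transcription had a median log2 fold change of 0.35 in netrin-1 WT against control, with 3 called higher (Ing4, Foxm1 and Crebl2), and of 0.22 in neo1 MUT, with 0 called. Phc1, a subunit of Polycomb repressive complex 1, was at 326, 371 and 307 CPM in the control libraries, 421, 468 and 583 in those of netrin-1 WT, 301, 320 and 444 in those of unc5B MUT, and 327, 312 and 611 in those of neo1 MUT. Within each number netrin-1 WT exceeded control. Chd4, the nucleosome remodeller of the NuRD complex, was at 525, 483 and 482 CPM in the control libraries, 522, 500 and 729 in those of netrin-1 WT, 509, 409 and 554 in those of unc5B MUT, and 449, 315 and 480 in those of neo1 MUT. Number 3 of netrin-1 WT was far above the control range for Chd4, and neo1 MUT was the lowest group in each number. Per kilobase of exon, Phc1 at 75.4 and Chd4 at 61.9 CPM were the highest of this group.

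Among 4 cell cycle and chromosome members, the medians were 0.41 in netrin-1 WT, -0.06 in unc5B MUT and 0.04 in neo1 MUT against control, with 0 called in each. Ncapd2, a subunit of condensin I, was at 242, 312 and 1169 CPM in the control libraries, 380, 417 and 1478 in those of netrin-1 WT, 265, 284 and 1309 in those of unc5B MUT, and 321, 271 and 1406 in those of neo1 MUT. The number 3 libraries held several times the level of the others, and netrin-1 WT was the highest group within each number. Cdca3, a trigger of mitotic entry, was at 87.4, 89.0 and 183 CPM in the control libraries, 110, 109 and 250 in those of netrin-1 WT, 83.2, 82.4 and 217 in those of unc5B MUT, and 80.8, 81.3 and 188 in those of neo1 MUT. Its number 3 libraries were also the highest of each group, and netrin-1 WT was again the highest group within each number. For 3 DNA repair members the netrin-1 WT median was 0.35, with Rhno1 called.

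The 3 members of ribosome production had medians of 0.15 in netrin-1 WT and -0.31 in neo1 MUT against control, and the 3 mitochondrial members 0.13 and -0.23, with 0 called in both groups and all 3 of each below 0 in neo1 MUT. Nop2, an rRNA methyltransferase, was at 227, 206 and 118 CPM in the control libraries, 199, 126 and 296 in those of netrin-1 WT, 207, 162 and 197 in those of unc5B MUT, and 174, 118 and 165 in those of neo1 MUT. Netrin-1 WT was below control in numbers 1 and 2 and above it in number 3. Phb2, the inner-membrane prohibitin, was at 363, 349 and 816 CPM in the control libraries, 402, 342 and 989 in those of netrin-1 WT, 338, 286 and 823 in those of unc5B MUT, and 345, 294 and 724 in those of neo1 MUT. Phb2 had the highest level per kilobase of exon of all members, at 136 CPM. Ndufa9, a subunit of respiratory complex I, was at 102, 91.0 and 110 CPM in the control libraries, 101, 92.2 and 126 in those of netrin-1 WT, 92.0, 77.0 and 106 in those of unc5B MUT, and 89.8, 78.5 and 89.8 in those of neo1 MUT. Its groups differed little.

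Of the ubiquitin, ISG15 and ADP-ribose group, 4 members were tested, with medians of 0.32 in netrin-1 WT and -0.15 in neo1 MUT against control and 0 called. Usp5, which disassembles free ubiquitin chains, was at 213, 198 and 311 CPM in the control libraries, 255, 256 and 491 in those of netrin-1 WT, 193, 194 and 401 in those of unc5B MUT, and 180, 188 and 339 in those of neo1 MUT. Netrin-1 WT was highest in each number. Cops7a, a subunit of the COP9 signalosome, was at 87.9, 79.3 and 199 CPM in the control libraries, 87.4, 95.2 and 314 in those of netrin-1 WT, 93.1, 66.3 and 246 in those of unc5B MUT, and 61.1, 46.2 and 168 in those of neo1 MUT. The neo1 MUT libraries were the lowest of each number, and the edgeR adjusted p against control was 0.0655. The 8 other subunits of the same complex had a median of -0.22 in netrin-1 WT against control, with Cops4 called lower at -0.41, beside 0.31 for Cops7a. The difference between Cops7a and its partners was not tested.

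Among 8 receptors, kinases and phosphatases the median against control was 0.32 in netrin-1 WT, with Adipor2 and Dusp16 called, -0.04 in unc5B MUT, and 0.08 in neo1 MUT, with Adipor2 called. Wnk1, a kinase that controls cation-chloride cotransport, was at 394, 424 and 1507 CPM in the control libraries, 449, 456 and 1966 in those of netrin-1 WT, 386, 382 and 1251 in those of unc5B MUT, and 435, 387 and 1407 in those of neo1 MUT. Number 3 was more than 3 times as high as the other numbers in every group. The remaining 12 members, of membrane traffic, lipid metabolism, cilia and the cell surface, had medians of 0.34, -0.06 and 0.08 in the same order. Mlf2, a myeloid leukaemia factor protein, was at 238, 249 and 420 CPM in the control libraries, 339, 386 and 456 in those of netrin-1 WT, 234, 229 and 416 in those of unc5B MUT, and 220, 230 and 348 in those of neo1 MUT. Netrin-1 WT was above control in each number. Atp6v1e1, a subunit of the vacuolar proton pump, was at 76.3, 64.7 and 115 CPM in the control libraries, 64.4, 59.3 and 115 in those of netrin-1 WT, 69.9, 64.5 and 102 in those of unc5B MUT, and 66.9, 64.9 and 117 in those of neo1 MUT. It differed little between groups.

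Genes elsewhere in the genome that work with members mostly had no call. None of 11 NuRD partners, 11 subunits of Polycomb complex 1 and 10 Wnt receptors was called in netrin-1 WT against control by edgeR with the block. Their medians were -0.06, -0.08 and 0.01, and 1, 1 and 0 of them had an unadjusted p under 0.05. In that fit 3808 of all 21053 tested genes had such a p. Of 12 mitotic genes known as Foxm1 targets, 0 were called in netrin-1 WT (median 0.17, 4 at an unadjusted p under 0.05), beside 0.60 for Foxm1 itself. In neo1 MUT against unc5B MUT, Cenpf was called higher at 0.58 and Birc5 lower at -0.98, and Birc5 was also called lower in neo1 MUT against control at -1.06. The 6 tested Yap and Tead targets had a median of 0.53 in netrin-1 WT against control, with 0 called and 4 at an unadjusted p under 0.05. Their 1 called gene in any comparison was Amotl2, higher in neo1 MUT against control (0.39) and against unc5B MUT (0.55) and lower in unc5B MUT against netrin-1 WT (-0.44). Of 7 condensin partners, Ncaph2 was called lower in neo1 MUT against unc5B MUT at -0.42. Of 12 G1 cyclins and kinase inhibitors, Cdk6 was called higher at 1.08 and Ccne1 lower at -0.56 in netrin-1 WT against control. In neo1 MUT against control Cdk6 and Cdkn2a were called higher, at 0.77 and 0.93.

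The pluripotency genes inside the interval were not members. Nanog was at 269, 138 and 128 CPM in the control libraries, 238, 183 and 441 in those of netrin-1 WT, 266, 154 and 157 in those of unc5B MUT, and 208, 105 and 128 in those of neo1 MUT, a log2 fold change of 0.74 in netrin-1 WT against control, which was not called. Slc2a3 and Dppa3 were called higher there, at 0.87 and 2.24, while Gdf3 and Apobec1 had 0.32 and -0.14 without a call. Summed over Nanog, Dppa3, Gdf3, Slc2a3 and Apobec1, the level was 749 to 1142 CPM in control, 1478 to 1731 in netrin-1 WT, 737 to 833 in unc5B MUT and 662 to 1198 in neo1 MUT, and most of it was Slc2a3, a glucose transporter gene, at 610, 546 and 964 CPM in the control libraries, 1159, 1340 and 1225 in those of netrin-1 WT, 489, 521 and 590 in those of unc5B MUT, and 692, 508 and 1025 in those of neo1 MUT.

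Position was compared with the members' neighbours. The 145 tested genes of the interval that were not members were also read in the comparison that chose the set, netrin-1 WT against control. Their median log2 fold change was 0.43, with 118 above 0. Of them 20 were called higher, against 1.74% of all tested genes, and 0 lower, against 1.76%. Their within-number medians were 0.50, 0.47 and 0.45, nearly equal across numbers, whereas those of the members were uneven. The 870 other tested genes of chromosome 6 had a median of 0.06, with 8 called higher and 12 lower. In unc5B MUT the 3 sets had medians of -0.02, -0.01 and -0.03, and in neo1 MUT of -0.03, 0.10 and 0.02. The members' median in netrin-1 WT was below that of the other genes of the interval, and neither that difference nor the interval against other regions was tested.

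Along the chromosome, genes with a mean of at least 10 CPM, members included, were grouped in 5 Mb bins. At that level there were 40 members and 42 other genes of the interval. Netrin-1 WT against control chose the set, so its bins are a description. In that comparison the 42 other genes alone had a median log2 fold change of 0.43. In netrin-1 WT against control the bin medians were 0.29 at 115 to 120 Mb (24 genes), 0.40 at 120 to 125 Mb (33 genes), 0.42 at 125 to 130 Mb (25 genes) and 0.60 at 130 to 135 Mb, a bin of 9 genes. They were 0.25 at 135 to 140 Mb (14 genes), 0.24 at 140 to 145 Mb (11 genes) and 0.02 at 145 to 150 Mb (22 genes). Outside 115 to 140 Mb, the 8 bins with at least 20 genes ranged from -0.14 to 0.13, and over all 24 bins the highest was 0.39, at 105 to 110 Mb with 7 genes. In unc5B MUT and neo1 MUT the same 8 bins ranged from -0.10 to 0.01 and from -0.16 to 0.06. The bins of 9 and 14 genes at 130 to 135 Mb and 135 to 140 Mb lay beyond that range in neo1 MUT, at 0.31 and -0.24. In unc5B MUT they were at -0.08 and -0.05.

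**Figure D4:**
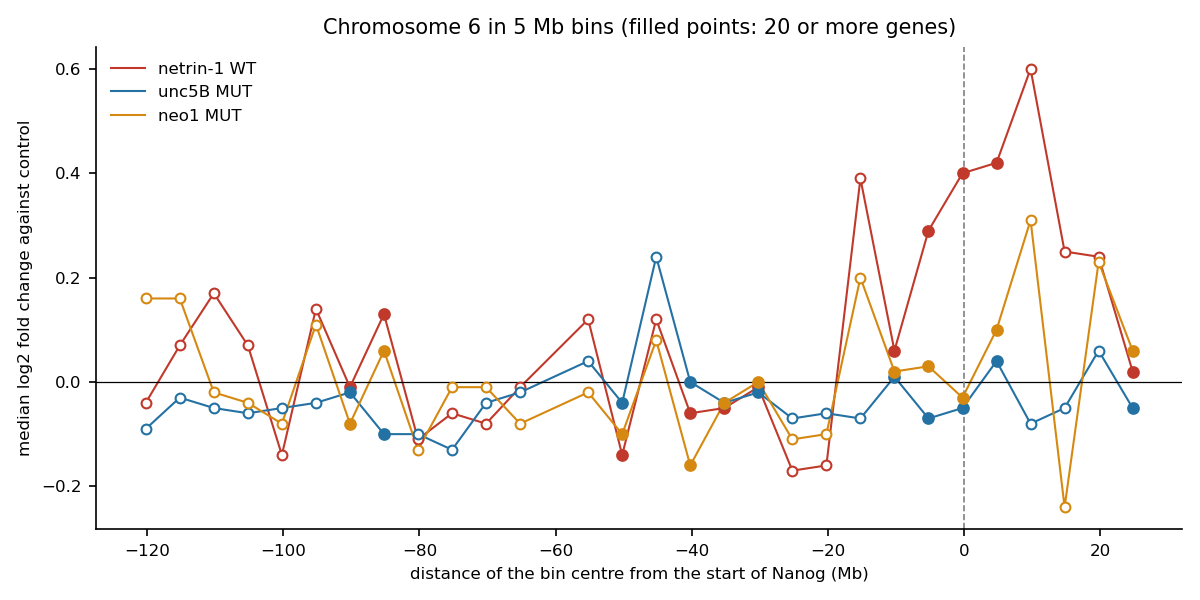
Median log2 fold change against control (y axis) of genes with a mean of at least 10 CPM, members included, in 5 Mb bins by distance from the start of Nanog (x axis, Mb). Netrin-1 WT reaches 0.40 and 0.42 in the filled points at and just beyond Nanog, where unc5B MUT is at -0.05 and 0.04 and neo1 MUT at -0.03 and 0.10. At 130 to 135 Mb and 135 to 140 Mb, in bins of fewer genes, neo1 MUT is at 0.31 and -0.24.

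The members were not uniform over the interval. From Adipor2 to Mical3, 7 tested members had a median of 0.06 in netrin-1 WT and of -0.03 in neo1 MUT against control. From Phc1 to Tnfrsf1a, 21 members had 0.31 and -0.17, and from Ndufa9 to Itfg2, 10 members had 0.32 and 0.18. From Etv6 to Atf7ip, 9 members had 0.60 and 0.33, and all 9 were above 0 in netrin-1 WT. In neo1 MUT against unc5B MUT these 4 stretches had medians of 0.10, -0.12, 0.25 and 0.46, with 1 member called in each, Clstn3 lower in the second and the others higher. The nearest genes with at least 10 CPM beyond the outermost members had netrin-1 WT values against control of 0.12 for Csgalnact2, 0.02 for Bms1 and 0.36 for Ankrd26 on the side of Adipor2. On the side of Atf7ip, H2afj had 0.16, Wbp11 0.43 and Arhgdib 0.36.

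Sequence was examined at the starts of members, since 4 pairs of members begin head to head on opposite strands: Emg1 and Phb2, Usp5 and Cdca3, Ncapd2 and Mrpl51, and Rhno1 and Foxm1, with 157, 62, 99 and 55 bases between their annotated starts. A single stretch of DNA lies before both genes of such a pair. The stretch between the RefSeq starts of Emg1 and Phb2 (chr6:124712179-124712288, GRCm38.p6) and that between the GENCODE starts of Ncapd2 and Mrpl51 (chr6:125191702-125191800), whose RefSeq starts lie outside it, are shown on the plus strand, because they are the shared upstream DNA of pairs whose values can be compared. The 100 bases before the RefSeq starts of Adipor2 (chr6:119388735-119388834), Tulp3 (chr6:128355852-128355951) and Dusp16 (chr6:134792629-134792728), all on the minus strand and shown 5′ to 3′ on it, are those of the 3 members called higher in neo1 MUT against unc5B MUT. Capitals mark matches to short motifs.
Emg1 and Phb2: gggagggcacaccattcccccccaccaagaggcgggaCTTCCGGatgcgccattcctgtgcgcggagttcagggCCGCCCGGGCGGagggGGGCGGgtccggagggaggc
Ncapd2 and Mrpl51: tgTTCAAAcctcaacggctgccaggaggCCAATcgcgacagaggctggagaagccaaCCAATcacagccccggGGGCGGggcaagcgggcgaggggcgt
Adipor2: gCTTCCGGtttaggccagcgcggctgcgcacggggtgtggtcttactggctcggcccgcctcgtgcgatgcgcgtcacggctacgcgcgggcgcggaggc
Tulp3: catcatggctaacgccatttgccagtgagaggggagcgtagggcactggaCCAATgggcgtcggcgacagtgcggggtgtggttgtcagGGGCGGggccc
Dusp16: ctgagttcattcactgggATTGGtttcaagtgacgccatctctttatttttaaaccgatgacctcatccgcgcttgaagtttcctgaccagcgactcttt
The motifs searched on both strands were CCAAT (the CCAAT box bound by NF-Y), GGGCGG (the GC box bound by Sp1), CCGGAAG (a site of ETS factors), TTTGAA (the cell-cycle CHR element), TATAAA (the TATA box) and the NRF1 site. No base of these 5 sequences was shared by different motifs. The Adipor2 start in RefSeq lies inside a longer GENCODE gene model.

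The stretch between Emg1 and Phb2 held 3 GC boxes and 1 ETS site, and that between Ncapd2 and Mrpl51 held 2 CCAAT boxes, 1 CHR element and 1 GC box. In windows of 99 bases before all 32851 RefSeq starts, the CCAAT box was in 18.7%, the CHR element in 5.72% and the GC box in 24.6%, and in windows of 110 bases the GC box was in 25.7% and the ETS site in 4.78%. Tulp3 had a CCAAT box and a GC box, Dusp16 a CCAAT box and Adipor2 an ETS site, so the 3 genes called together shared no motif by all 3. RefSeq starts were found for 36 of the 48 members, giving 43 windows of 100 bases. These are not independent: the windows of Emg1 and Phb2 overlap, so their ETS site and GC boxes were counted for both genes. The windows of the alternative Spsb2 starts also overlap. The CCAAT box was in 25.6% of those windows against 18.9% of all, the ETS site in 25.6% against 4.52%, the GC box in 44.2% against 24.7%, the CHR element in 2.33% against 5.77% and the TATA box in 2.33% against 5.56%. In the 9401 windows of genes with a mean of at least 10 CPM, the CCAAT box share was 23.2%, that of the GC box 47.7% and that of the ETS site 10.5%. There the CHR element was in 3.08% and the TATA box in 2.05%, both close to the members' 2.33%, which is 1 of 43 windows. A match of letters is a description and not a bound site.

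The values of the head-to-head partners are given side by side. In netrin-1 WT against control the log2 fold changes were 0.20 and 0.13 for Emg1 and Phb2, 0.42 and 0.36 for Usp5 and Cdca3, 0.47 and 0.31 for Ncapd2 and Mrpl51, and 0.68 and 0.60 for Rhno1 and Foxm1. In neo1 MUT they were -0.23 and -0.17, -0.07 and -0.07, 0.16 and -0.26, and 0.43 and 0.53. The fitted values of Ncapd2 and Mrpl51 thus had opposite signs there, but their libraries differed in direction only in number 1. In neo1 MUT both genes were below the control library in number 2 and above it in number 3. Emg1, a methyltransferase of ribosome assembly, was at 123, 117 and 157 CPM in the control libraries, 127, 111 and 246 in those of netrin-1 WT, 119, 98.5 and 201 in those of unc5B MUT, and 105, 87.1 and 159 in those of neo1 MUT. Its number 3 libraries were the highest of each group. With 4 pairs, no test of likeness was made.

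**Figure D5:**
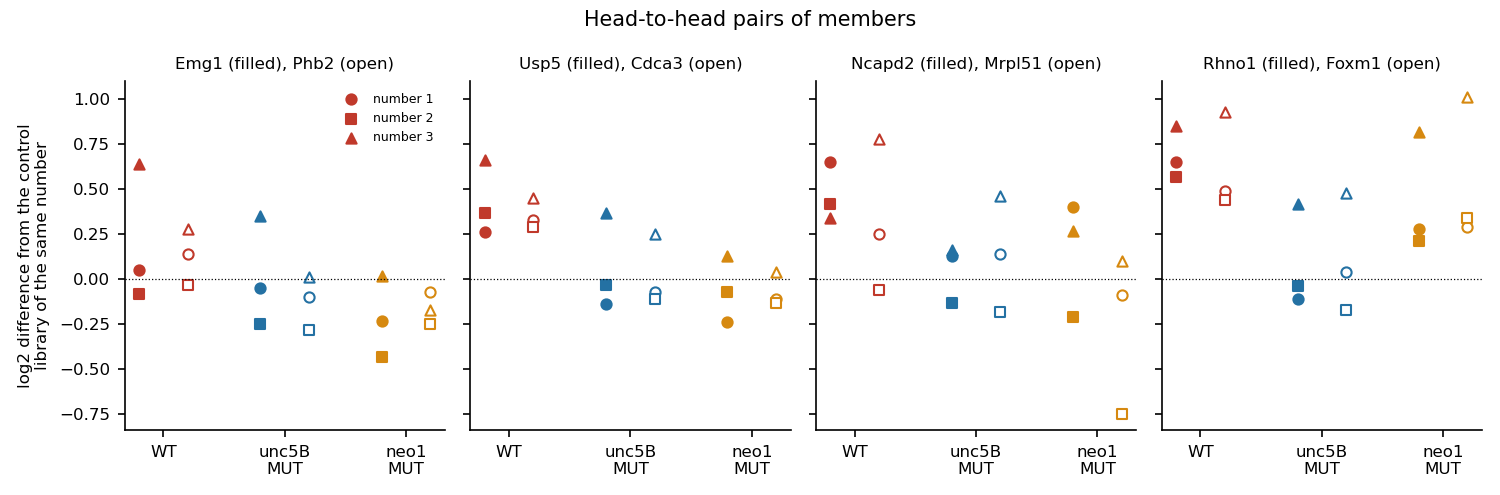
Log2 CPM difference from the control library of the same number (y axis) for the 4 head-to-head pairs in each netrin-1 group, with filled and open symbols for the 2 genes and a shape for each number. Rhno1 and Foxm1 are above 0 in all netrin-1 WT libraries, and the fitted values of Ncapd2 and Mrpl51 in neo1 MUT are 0.16 and -0.26.

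Reads of overlapping genes could have been shared between members and their neighbours. In the annotation 33 members overlap another gene, 10 of them another protein-coding gene, and 15 overlap none, Adipor2 and Clstn3 among them. Lpcat3, an enzyme that remodels phospholipids, and Emg1 overlap each other at their ends on opposite strands, and the use of strand in counting was not given in the sources used here. Their netrin-1 WT values of 0.26 and 0.20 are uncertain to that extent. The same holds for members that overlap a protein-coding gene outside the set on the opposite strand. Iffo1, at a mean of 15.8 CPM, overlaps Gapdh in this way, and Spsb2, at 3.77 CPM, overlaps Tpi1. Foxm1, called higher in netrin-1 WT, overlaps the protein-coding genes Tex52 and Gm44596 on the same strand, and Atn1 likewise overlaps Gm45234. The use of strand would not separate reads shared there.

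Members differed between the number 3 libraries and the rest within every group. The members' median log2 difference between number 3 and the mean of numbers 1 and 2 was 0.45 in control, 0.81 in netrin-1 WT, 0.60 in unc5B MUT and 0.63 in neo1 MUT, whereas all tested genes had medians of -0.04, -0.01, -0.07 and -0.04. Members that differed by more than 1 on that scale numbered 16 in control (34.0% of members, against 39.0% of all tested genes) and 17 in each other group (36.2%, against 36.8% to 42.8%). Among the 9521 genes with a mean of at least 10 CPM the share was 25.5% to 31.7%. The largest difference, 4.81, was within control. What a number stands for is not given in the labels, and its part in the members' values was not tested.

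Markers of another cell state moved with the groups. Primitive endoderm is an extraembryonic lineage that embryonic stem cells can enter. All 14 of its markers were called lower in netrin-1 WT and in neo1 MUT against control, with medians of -2.75 and -2.48. In unc5B MUT 0 of 14 were called, in a comparison where almost no gene was called. All 14 were nevertheless below 0 there, from -1.32 to -0.24, with a median of -0.57. Of these, 8 had an unadjusted edgeR p under 0.05, as had 990 of all 21053 tested genes. Their summed level was 1534 to 3631 CPM in control, 389 to 942 in netrin-1 WT, 940 to 2703 in unc5B MUT and 413 to 733 in neo1 MUT. Col4a1, a basement membrane collagen, was the most abundant of them, and none of the 14 was at 0 in any library. Fibroblast markers summed to 229 to 253 CPM in control, 173 to 290 in netrin-1 WT, 237 to 332 in unc5B MUT and 111 to 190 in neo1 MUT, most of it Vim, with 6 of 10 tested. Trophectoderm markers summed to 66.9 to 110, 51.5 to 114, 54.2 to 83.2 and 46.4 to 61.2 CPM, with 7 of 8 tested. Against control, 2 of the 6 fibroblast markers were called lower in neo1 MUT. For trophectoderm, 1 marker was called higher in netrin-1 WT and 1 lower in neo1 MUT. Among the 10 pluripotent cell markers 1 was called higher in netrin-1 WT. No other marker of these 3 lists was called against control. The part of these cell states in the members' values was not tested, and in bulk RNA fewer cells of a type and less RNA per cell cannot be told apart.

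The authors' deposited table of comparisons held more called members than the fit with the block in 4 comparisons, fewer in neo1 MUT against netrin-1 WT, and 0 like it in unc5B MUT against control. For netrin-1 WT against control, 11 members were higher and 0 lower in the authors' deposited table, where 4.42% of its 20347 genes were called. Against control, 0 members were called in unc5B MUT (0.0491% of genes), and 4 were higher and 1 lower in neo1 MUT (5.52%), by the authors' deposited table. For neo1 MUT against unc5B MUT the authors' deposited table had 6 members higher and 2 lower (6.36%), adding Tead4, Mansc1 and Cdkn1b to the higher calls above and Tnfrsf1a to the lower. Against netrin-1 WT the authors' deposited table had 0 higher and 9 lower in unc5B MUT (3.07%) and 0 higher and 5 lower in neo1 MUT (2.19%).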

How the data were processed

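RNA-seq of 12 libraries was analysed, 3 in each of 4 groups. The deposited table holds estimated counts per gene, which the authors left unnormalised and not whole. They were rounded, as the test had been planned for whole counts. The submitters' processing notes name STAR 2.5.2b, FastQC 0.11.5, DESeq2, R 3.3.2, Bowtie2 and Bowtie, with no role for any. The program behind the estimates and the use of strand were not given in the sources used here. A second deposited table holds log2 fold changes and adjusted p-values by the authors, per the file headers.

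Genes were named from GENCODE M21 (GRCm38) by identifier, with 52566 of 52661 matched. They were filtered with filterByExpr, normalised by TMM and fitted over all 12 libraries with edgeR 4.0.16 (quasi-likelihood test) in R 4.3.3, with group alone and with the replicate number as a block. Calls have a Benjamini-Hochberg adjusted p under 0.05 over all 21053 tested genes. Deviations of libraries with the same number correlated at 0.58 to 0.881 over 18 pairs. Those of libraries numbered 1 and 2 correlated at 0.492 to 0.758 over 12 pairs, a range that overlaps the first. The correlations therefore could not tell whether numbers 1 and 2 pair the libraries across groups. The block took the numbers to pair the libraries, as an assumption. DESeq2 1.42.0, limma 3.58.1 and other settings were alternatives. The edgeR script was tested on simulated data.

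The members, the gene lists and the tests were chosen with earlier results of these data known. Values in every library were given by a rule: the 2 members of each role with the highest mean level, and the 3 highest and 3 lowest log2 fold changes of 4 comparisons. Other members were named where a test called them or, chosen after their values were seen, as partners in a pair or overlap or in a full list of a count. The values of 1 member that the rule names, and of 1 list of genes, are not reported here. Summed counts of 22256195 to 59735737 set the precision of scarce genes such as Dyrk4.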

Additional observations from a re-analysis of the deposited data

How the results depend on the processing

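Counts of called members depended on the fit, and the medians much less. Without the block edgeR called 0 members in each comparison; in the order netrin-1 WT against control, neo1 MUT against control, unc5B MUT against netrin-1 WT, neo1 MUT against netrin-1 WT and neo1 MUT against unc5B MUT, DESeq2 called 3, 2, 3, 1 and 2, numbers 1 and 2 alone gave 8, 4, 7, 2 and 5, and the replicate block gave 8, 3, 6, 6 and 4. With the block, netrin-1 WT against control gave 16 by DESeq2, 13 by limma-voom, 17 in numbers 1 and 2, 0 with only those groups fitted and 1 at an adjusted p of 0.01. For neo1 MUT against control these were 11, 5, 11 and 1, with 5 at a filter of 1 CPM. For unc5B MUT against netrin-1 WT they were 20, 10, 17 and 1, with 0 at 0.01. For neo1 MUT against netrin-1 WT, DESeq2 gave 14, and only those groups or 0.01 gave 1. For neo1 MUT against unc5B MUT, DESeq2 gave 15, limma-voom 9, numbers 1 and 2 alone 12, only those groups 10, no filter 8 and 0.01 gave 1. The counts in these other fits, and in those with 1 library left out, are given without the share of all genes called. They show how the count moved and do not set the members against all genes.

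Leaving out 1 library gave 0 to 0 calls without the block in each comparison. With it the ranges were 1 to 12 (netrin-1 WT against control), 0 to 0 (unc5B MUT against control), 2 to 6 (neo1 MUT against control), 0 to 13 (unc5B MUT against netrin-1 WT), 1 to 3 (neo1 MUT against netrin-1 WT) and 0 to 2 (neo1 MUT against unc5B MUT), and the medians ranged from 0.20 to 0.36, -0.06 to 0.01, -0.04 to 0.02, -0.41 to -0.26, -0.38 to -0.29 and 0.02 to 0.14. Numbers 1 and 2 alone gave a median of -0.26 for unc5B MUT against netrin-1 WT. The median of all interval genes, members included, in netrin-1 WT against control was 0.42 at a minimum of 10 CPM and 0.38 at 30 CPM. Of 27 called pairs of gene and comparison, 4 held in every leave-one-out fit: Tulp3 in netrin-1 WT and neo1 MUT against control, and Clstn3 in neo1 MUT against control and netrin-1 WT. Over all alternatives for single genes 216 kept their call, 135 lost it and 0 turned direction. The cause was not tested.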

Other observations

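Among interval genes outside the set, Vwf, which encodes von Willebrand factor, had a log2 fold change of 1.75 ± 0.23 (SE, edgeR adjusted p = 0.00312 with the block) in neo1 MUT against control and of 1.59 ± 0.23 (edgeR adjusted p = 0.00597) against unc5B MUT. The predicted gene Gm44078 fell by 1.96 ± 0.18 (edgeR adjusted p = 0.000441) in neo1 MUT against control and by 1.61 ± 0.18 (edgeR adjusted p = 0.00132) against unc5B MUT. In unc5B MUT against control their values were 0.16 and -0.35, without a call.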
